A study of Mus musculus with 4 samples.

Results

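The expression of 9 core macrophage identity genes was examined in periosteal cells that had been sorted to be free of blood cells. The genes were *Lyz2*, *Cd68*, *Mpeg1*, *Laptm5*, *Mrc1*, *Cd14*, *Spi1*, *Cx3cr1* and *Msr1*, taken by symbol from the deposited table of 45802 gene symbols, and all 9 had a value in all 4 libraries, as did 14415 genes in total. The 4 libraries were total RNA of PDGFRα reporter+ cells (2 libraries) and PDGFRα reporter- cells (2 libraries), and the comparison addressed how these populations of the mouse periosteum differ. Cells of both populations came from the femurs and tibias of male PDGFRα-mTmG mice, 9 to 10 weeks old, in which a CreER driven by the *Pdgfra* promoter switches a cell from membrane tdTomato to membrane GFP. Tamoxifen (150 mg/kg, daily over 5 days) was given to all animals, followed by a chase of 14 days. Cells were pooled from 3 to 6 mice per population according to the labels (the methods of the study give a different, higher number per population), were expanded for 1 passage with 10 ng/mL bFGF, and were then sorted as CD31-CD45-Ter119- with GFP (reporter+) or with tdTomato (reporter-). The reporter therefore marks cells in which the promoter was active at the time of tamoxifen, not the level of *Pdgfra* at the time of sorting, and whether the 2 libraries of a population came from separate animals is not written in the labels, so that p-values may measure technical spread only.

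Macrophages are tissue phagocytes that arise from embryonic progenitors or from blood monocytes. Their identity is set by the transcription factor PU.1, the product of *Spi1*, and is read out by lysosomal proteins for digestion of the engulfed cargo, by scavenger and mannose receptors for its uptake, and by receptors that sense bacterial products and chemokines. In bone, resident macrophages lie on the periosteal and endosteal surfaces next to osteoblasts, and they share a precursor with the osteoclast. They carry CD45 on their surface and are usually removed from stromal preparations by that marker.

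Each value was a log2 expression value, quantile normalized by the authors, so that the median (1.48) and the highest value (11.73) were the same in the 4 libraries. The unlogged unit, its relation to transcript length and the sequencing depth are not stated, and levels are therefore compared between libraries for the same gene or list. In the table the libraries of each population carry the number 2 or 3, and these numbers are used as names here. Across genes, which are not independent replicates, libraries with the same number but of different populations had correlations of 0.984 (number 2) and 0.982 (number 3), compared with 0.952 and 0.957 between libraries of the same population. Of 10 genes of the periosteal stroma, 9 lay above the library median in all libraries, among them *Pdgfra* with log2 values between 7.44 and 7.87 and a difference between populations of 0.05 (SE 0.24). The exception was *Postn*, a matrix protein of the periosteum, with −1.13 and 2.04 in reporter+ and 0.14 and 3.04 in reporter- libraries 2 and 3. Its difference of −1.14 (SE 1.45) was made up of −1.275 within number 2 and −1.0 within number 3. It turned to 0.45 without reporter+ library 2 and to 0.31 without reporter- library 3, where the numbers are no longer balanced. *Dcn*, the matrix proteoglycan decorin, had 7.47 and 8.49 in reporter+ and 6.67 and 6.51 in reporter- libraries 2 and 3, with no overlap, and its difference of 1.39 (SE 0.39) was as large as the largest among the 9 macrophage genes (0.88 without reporter+ library 3). *Ptprc*, the gene of the CD45 antigen used to deplete leukocytes, had a value in every library. Its log2 values were −1.28 and −0.39 in reporter+ libraries 2 and 3 and −2.30 and −1.22 in reporter- libraries 2 and 3.

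All 9 macrophage genes had a higher mean in PDGFRα reporter+ than in PDGFRα reporter- cells. The log2 difference (reporter+ minus reporter-) ran from 0.51 for *Cd14* to 1.39 for *Msr1*, with a median of 1.00, beside a median of −0.0035 over all 14415 genes, of which 49.1% were higher in reporter+ cells. Within the libraries numbered 2, 7 of the 9 genes were higher in reporter+ cells, and within the libraries numbered 3 all 9 were. The 7 genes that were higher within both numbers were *Lyz2*, *Cd68*, *Mpeg1*, *Laptm5*, *Mrc1*, *Spi1* and *Msr1*, beside 22.1% of all genes tested, and 0 of the 9 were lower within both, beside 24.8% of all genes. Both reporter+ libraries lay above both reporter- libraries for 4 of the 9 genes (*Lyz2*, *Cd68*, *Mrc1* and *Msr1*), beside 7.59% of all genes, whereas the populations overlapped for the other 5. The reverse, both reporter+ libraries below both reporter- libraries, was seen for 0 of the 9, beside 8.1% of all genes. None of the differences passed the test. With limma and Benjamini-Hochberg adjustment over all genes, the adjusted p was under 0.05 for 0 of the 9 and for 0 of all 14415 genes (0%), beside 1 of the 9 (*Cd68*, unadjusted p = 0.0133) and 131 of all genes with an unadjusted p under 0.05, of which 65 (0.451%) were higher in reporter+ cells. With the library number as a replicate block, which the labels do not establish as a pairing, 0 of the 9 genes passed as well, beside 0.153% of all genes called as higher and 0.0486% called as lower in reporter+ cells. In that fit 7 of the 9 genes were higher with an unadjusted p under 0.05, beside 3.36% of all genes, and 0 of the 9 were lower, beside 2.97%. The median of the 9 genes was 1.27 within number 2 and 0.80 within number 3, and it varied with the library left out. It was 0.51 without reporter- library 2, 0.62 without reporter+ library 3 and 1.20 without reporter+ library 2. Without reporter- library 3 it was 1.58, and 8 of the 9 were higher. Leaving out a library unbalances the numbers, so that the difference between numbers enters each such value, here and below. In these bulk libraries, fewer cells of a type and less RNA per cell cannot be told apart.

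**Figure D1:**
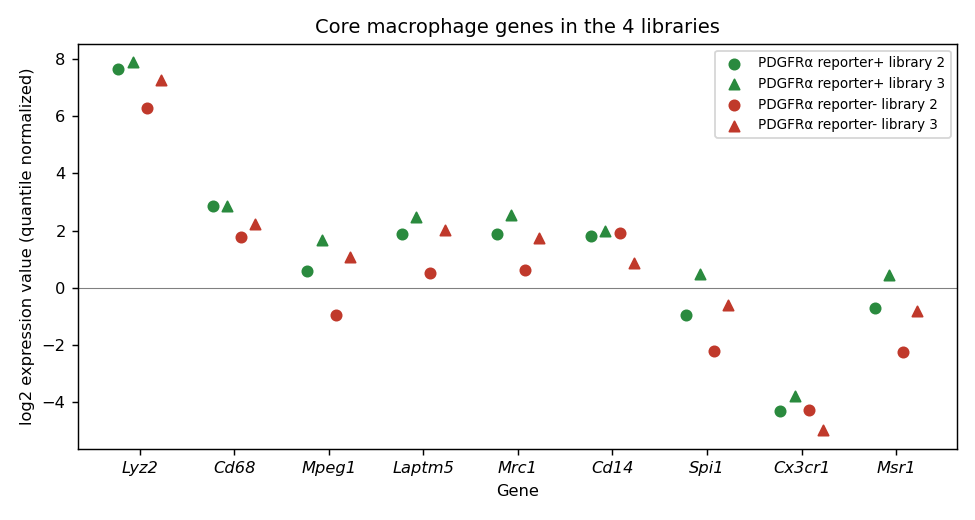
Log2 expression values (y axis, quantile normalized) of the 9 core macrophage genes (x axis) in each library, with green for PDGFRα reporter+, red for PDGFRα reporter-, circles for libraries numbered 2 and triangles for libraries numbered 3. For 8 of the 9 genes reporter+ library 3 was the highest, and for 7 of the 9 reporter- library 2 was the lowest.

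*Spi1* encodes PU.1, the transcription factor without which macrophages do not form (chromosome 2, 91082390 to 91115756, plus strand, GRCm38). In reporter+ libraries 2 and 3 the log2 value was −0.94 and 0.48, and in reporter- libraries 2 and 3 it was −2.21 and −0.61. Reporter- library 3 lay between the reporter+ libraries, so that the populations overlapped. The log2 difference was 1.18 (SE 0.79, limma adjusted p = 1), or 2.26-fold on the unlogged scale, but 0.43 with a pseudocount of 1 on the unlogged values. Without the pseudocount it was made up of 1.27 within number 2 and 1.09 within number 3, whereas libraries of the same population differed by 1.42 (reporter+) and 1.60 (reporter-). The log2 difference was 0.38 without reporter- library 2, 0.47 without reporter+ library 3, 1.89 without reporter+ library 2 and 1.98 without reporter- library 3. The difference between populations was thus of a similar size in both numbers, and smaller than the difference between numbers.

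*Lyz2*, which encodes lysozyme M, the bacteriolytic enzyme of macrophages and neutrophils, lay far above the median of the libraries (chromosome 10, 117277331 to 117282321, minus strand). Log2 values of *Lyz2* were 7.65 and 7.88 in reporter+ libraries 2 and 3 and 6.27 and 7.25 in reporter- libraries 2 and 3. Both reporter+ libraries were above both reporter- libraries, with a gap of 0.40 between the nearest of them. The log2 difference was 1.00 (SE 0.38, limma adjusted p = 1), a 2.0-fold higher value in reporter+ cells, with 1.38 within number 2 and 0.62 within number 3. The spread was unequal: the SD was 0.16 in reporter+ and 0.70 in reporter- cells (n = 2 each), and the difference was 0.51 without reporter- library 2.

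*Lyz1*, the lysozyme P gene of the intestinal Paneth cell, lies next to *Lyz2* on the same chromosome (117287797 to 117292868) and is its close copy. In GENCODE M21, 195 of the 1267 stretches of 50 bases in the *Lyz2* transcript (15.4%) also occur in the *Lyz1* transcript, so that some reads may fit both genes. The log2 value of *Lyz1* was −2.08 and −2.47 in reporter+ libraries 2 and 3 and −4.12 and −2.51 in reporter- libraries 2 and 3. How reads that fit both genes were counted is not given in the sources used here.

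Since PU.1 binds purine-rich sites around a GGAA core, the upstream sequence of the genes was searched for 2 forms of its site, GAGGAA and AGGAAGT, on both strands of the 250 bases before the RefSeq start site (GRCm38.p6). These forms share the letters AGGAA and can overlap. Of the 9 genes, 6 were matched in the RefSeq promoter table. At least 1 form was found for 4 of the 6 (*Lyz2*, *Cd68*, *Laptm5* and *Mrc1*), and none for *Mpeg1* and *Cx3cr1*, beside 27.3% of all 32851 promoters (23.3% for GAGGAA and 7.69% for AGGAAGT). The stretches below are shown because they hold these matches, in capitals, upstream of the annotated start. They read 5′ to 3′ on the strand of the gene and lie at chr10:117282351-117282387 (*Lyz2*, minus strand), chr10:117292947-117292983 (*Lyz1*, minus strand), chr11:69666375-69666410 (*Cd68*, minus strand) and chr2:14229188-14229391 (*Mrc1*, plus strand).
Lyz2: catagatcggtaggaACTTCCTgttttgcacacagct
Lyz1: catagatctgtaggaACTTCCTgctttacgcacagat
Cd68: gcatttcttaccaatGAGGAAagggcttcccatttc
Mrc1: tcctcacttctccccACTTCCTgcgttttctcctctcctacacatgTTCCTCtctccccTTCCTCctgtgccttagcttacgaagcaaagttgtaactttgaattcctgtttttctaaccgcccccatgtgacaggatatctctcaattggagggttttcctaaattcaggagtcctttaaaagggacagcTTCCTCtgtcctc
*Lyz2* and *Lyz1* carry the reverse complement of AGGAAGT beginning 100 bases upstream of the RefSeq start, but the GENCODE start of *Lyz2* lies closer to the match than its RefSeq start does, whereas for *Lyz1* both starts are the same. *Mrc1* holds 1 match to AGGAAGT and 3 to GAGGAA, all on the opposite strand. For *Cx3cr1* the window searched lies within the gene as GENCODE gives it, so that the bases before its GENCODE start were not searched. The match of *Laptm5* falls after the start that GENCODE gives and is not printed. Such matches are a description of the letters and say nothing of binding in these cells.

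*Cd68* encodes macrosialin, a heavily glycosylated protein of the late endosome and lysosome in the LAMP family (chromosome 11, 69664213 to 69666153, minus strand). Log2 values of *Cd68* were 2.87 and 2.84 in reporter+ libraries 2 and 3 and 1.77 and 2.22 in reporter- libraries 2 and 3. It was the gene with the tightest values and the widest gap between the populations, 0.63 between the lower reporter+ and the higher reporter- library. The log2 difference was 0.86 (SE 0.22, limma adjusted p = 1), or 1.82-fold, and ranged from 0.64 to 1.09 with each library left out in turn. In contrast to the other 8 genes, it was not higher in reporter+ library 3 than in reporter+ library 2.

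*Mpeg1* encodes perforin-2, a pore-forming protein of the phagosome (chromosome 19, 12460779 to 12465283, plus strand). The gene had log2 values of 0.59 and 1.68 in reporter+ libraries 2 and 3 and −0.96 and 1.07 in reporter- libraries 2 and 3. Reporter- library 3 exceeded reporter+ library 2, and the reporter- libraries differed by 2.03. The log2 difference of 1.08 (SE 0.81, limma adjusted p = 1) was made up of 1.55 within number 2 and 0.61 within number 3. It was 0.063 without reporter- library 2, 0.54 without reporter+ library 3, 1.63 without reporter+ library 2 and 2.10 without reporter- library 3. With a pseudocount of 1 on the unlogged values it was 0.58 over the 4 libraries.

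*Laptm5*, which encodes a lysosomal transmembrane protein of hematopoietic cells (chromosome 4, 130913125 to 130936141, plus strand), followed the same order of libraries. The log2 values were 1.88 and 2.46 in reporter+ libraries 2 and 3 and 0.51 and 2.01 in reporter- libraries 2 and 3. The populations overlapped by 0.12, and the log2 difference was 0.91 (SE 0.57, limma adjusted p = 1), with 1.37 within number 2 and 0.45 within number 3. Without reporter- library 2 it was 0.16, without reporter+ library 3 it was 0.62, and without reporter- library 3 it was 1.66.

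The uptake receptors *Mrc1* and *Msr1* each had a small gap between the populations. *Mrc1* encodes the mannose receptor CD206, which takes up glycoproteins with mannose ends (chromosome 2, 14229392 to 14332057, plus strand, with the microRNA gene *Mir511* inside it). Its log2 values were 1.87 and 2.55 in reporter+ libraries 2 and 3 and 0.63 and 1.75 in reporter- libraries 2 and 3. The nearest libraries of the 2 populations were 0.12 apart, and the log2 difference was 1.02 (SE 0.48, limma adjusted p = 1), with 1.24 within number 2 and 0.80 within number 3. It was 0.46 without reporter- library 2, 0.68 without reporter+ library 3 and 1.58 without reporter- library 3. *Msr1* encodes the class A scavenger receptor for modified lipoproteins and bacteria (chromosome 8, 39581685 to 39642673, minus strand). *Msr1* had log2 values of −0.70 and 0.43 in reporter+ libraries 2 and 3 and −2.24 and −0.82 in reporter- libraries 2 and 3. Its log2 difference of 1.39 (SE 0.69, limma adjusted p = 1), or 2.63-fold, was the largest among the 9 genes, but with a pseudocount of 1 on the unlogged values it was 0.50, and that of *Lyz2* (0.995) was the largest. It was 1.53 within number 2 and 1.25 within number 3, although reporter+ library 2 and reporter- library 3 were only 0.12 apart. The difference was 0.69 without reporter- library 2, 0.83 without reporter+ library 3 and 2.10 without reporter- library 3.

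*Cd14* and *Cx3cr1* did not share this order of libraries. *Cd14* encodes the co-receptor that hands bacterial lipopolysaccharide (LPS) to TLR4 and MD-2 (chromosome 18, 36725067 to 36726798, minus strand). *Cd14* had log2 values of 1.81 and 1.99 in reporter+ libraries 2 and 3 and 1.93 and 0.85 in reporter- libraries 2 and 3. Reporter- library 3 stood below the other 3 libraries, which lay within 0.19 of each other. The log2 difference of 0.51 (SE 0.41, limma adjusted p = 1) came from the libraries numbered 3 (1.14), whereas that within number 2 was −0.12, and it was −0.027 without reporter- library 3 and 1.05 without reporter- library 2. *Cx3cr1* encodes the receptor for fractalkine on monocytes and resident macrophages (chromosome 9, 119901616 to 120069879, minus strand). *Cx3cr1* had log2 values of −4.31 and −3.77 in reporter+ libraries 2 and 3 and −4.27 and −4.98 in reporter- libraries 2 and 3, far below the median of the libraries. The log2 difference was 0.59 (SE 0.65, limma adjusted p = 1), with −0.04 within number 2 and 1.22 within number 3. It was 0.32 without reporter+ library 3, 0.23 without reporter- library 3 and 0.95 without reporter- library 2. The annotated span of *Cx3cr1* overlaps 9 other genes, among them *Wdr48* with log2 values of 3.23 to 3.32 and *Gorasp1* with 2.01 to 2.15, and how reads of overlapping genes were counted is not given in the sources used here.

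**Figure D2:**
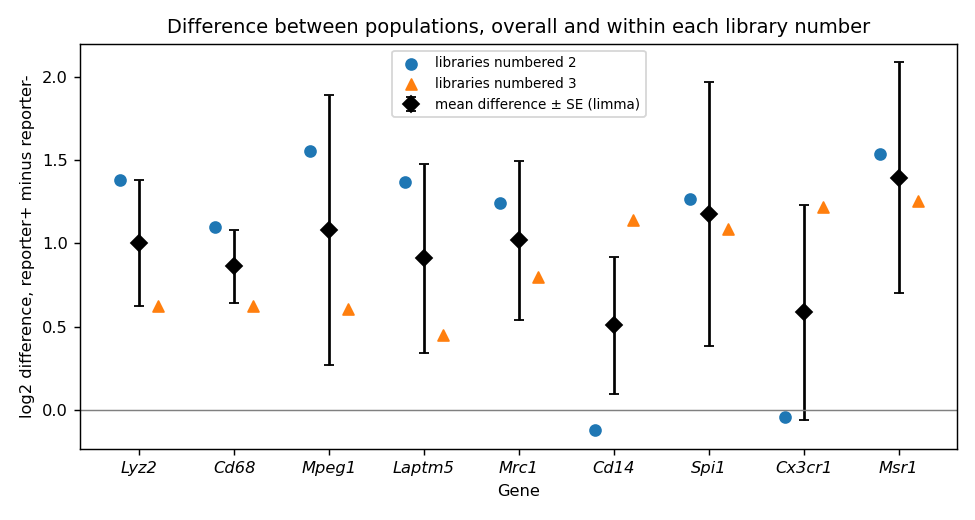
Log2 difference between PDGFRα reporter+ and PDGFRα reporter- cells (y axis) for the 9 core macrophage genes (x axis). Diamonds with bars are the mean difference ± SE from limma over the 4 libraries, circles the difference within the libraries numbered 2 and triangles that within the libraries numbered 3. The difference was larger within number 2 for 7 genes and below 0 there only for *Cd14* and *Cx3cr1*.

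The genes also varied with the library number. In reporter- cells 7 of the 9 genes had a higher value in library 3 than in library 2, with a median log2 difference of 1.12 between these libraries, and in reporter+ cells 8 of 9, with a median of 0.58. The change between numbers was largest for *Mpeg1* (2.03 in reporter- cells) and *Spi1* (1.60 and 1.42), small for *Cd68* (0.45 and −0.024), and of opposite sign in the populations for *Cd14* and *Cx3cr1*. The difference between the populations was accordingly smaller within number 3 (median 0.80) than within number 2 (median 1.27) over the 9 genes.

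To see which genes followed the 9 genes most closely, each log2 value was set relative to the mean of its gene, and the Euclidean distance over the 4 libraries to the median of the 9 genes was taken. That median pattern was −1.07 in reporter- library 2, 0.01 in reporter- library 3, 0.16 in reporter+ library 2 and 0.74 in reporter+ library 3. Among 10224 genes whose mean was 0 or more on the log2 scale, the 10 nearest were *Mrc1* (distance 0.113), *Angptl4* (0.179), *Csf1r* (0.208), *Itgb2* (0.218), *Rnf128* (0.244), *Slc11a1* (0.258), *Fcgr2b* (0.261), *Lyz2* (0.270), *Adgre1* (0.274) and *Tyrobp* (0.290). *Csf1r* encodes the receptor for the macrophage growth factor CSF1, *Itgb2* the β chain of the leukocyte integrins, *Adgre1* an adhesion receptor widely used to mark mouse macrophages, and *Tyrobp* the adaptor DAP12. *Slc11a1* encodes a metal transporter of the phagosome, *Fcgr2b* the inhibitory IgG receptor, *Rnf128* a ubiquitin ligase and *Angptl4* a secreted inhibitor of lipoprotein lipase. *Angptl4* had log2 values of 6.04 and 6.64 in reporter+ libraries 2 and 3 and 5.01 and 5.99 in reporter- libraries 2 and 3. Within the 9 genes the distance to their own median was smallest for *Mrc1*, and largest for *Cd14* (1.62) and *Cx3cr1* (1.33). Which genes were among the nearest depended on the treatment of low values. When no minimum was set, 4 of the 10 remained (*Mrc1*, *Angptl4*, *Csf1r* and *Itgb2*), as genes with lower means came in. When a pseudocount of 1 was added to the unlogged values, 4 remained (*Itgb2*, *Fcgr2b*, *Csf1r* and *Rnf128*), and none of the 9 core genes was among the nearest 10.

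**Figure D3:**
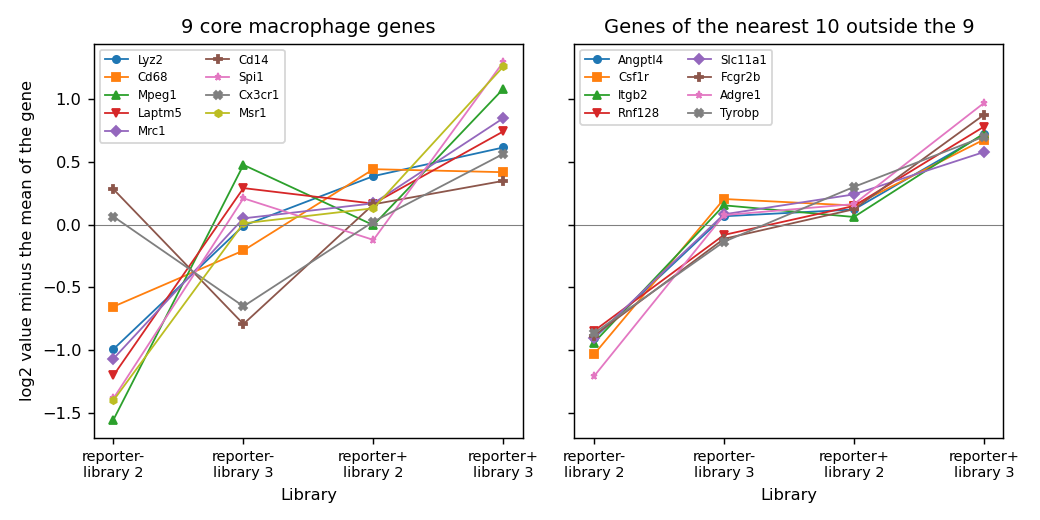
Log2 value of each gene minus its own mean (y axis) in the 4 libraries (x axis), on the left for the 9 core macrophage genes and on the right for the 8 of the 10 nearest genes that are not among the 9, with lines joining the points of a gene. Most genes were lowest in reporter- library 2 and highest in reporter+ library 3, whereas *Cd14* and *Cx3cr1* were lowest in reporter- library 3.

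The macrophage program was followed further with 70 companion genes in 6 lists. Values were present for 69 of them in some library and for 61 in every library. Of the 61, 48 were higher in reporter+ cells by the mean (49.1% of all genes), with a median log2 difference of 0.38. Within both library numbers 37 were higher (22.1% of all genes) and 7 were lower (24.8% of all genes). None had an adjusted p under 0.05 with limma, beside 5 whose unadjusted p was under 0.05, compared with 0.451% of all genes that were higher and 0.458% that were lower at that level. *Tyrobp* and *C1qb* passed once the number entered the fit as a replicate block (limma adjusted p = 0.0437 each), beside 0.153% of all genes, with adjusted p-values of 0.463 to 1 in the other settings. The median was 0.12 without reporter- library 2, 0.21 without reporter+ library 3, 0.67 without reporter+ library 2 and 0.77 without reporter- library 3.

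Receptors and signaling proteins of the macrophage surface resembled the core genes. Of 20 listed genes, 15 had a value in all libraries, and 14 of these were higher in reporter+ cells within both numbers, beside 22.1% of all genes, with a median log2 difference of 0.83 (0.27 without reporter- library 2, 0.51 without reporter+ library 3, 1.44 without reporter- library 3). *Adgre1* had log2 values of 1.36 and 2.17 in reporter+ libraries 2 and 3 and −0.013 and 1.27 in reporter- libraries 2 and 3, and with 1.13 (SE 0.55) the highest difference of the list. For *Csf1r* the values were 1.08 and 1.60 in reporter+ and −0.11 and 1.13 in reporter- libraries 2 and 3, a difference of 0.83 (SE 0.50). *Itgam*, which encodes CD11b, had 0.50 and 1.38 in reporter+ and −0.76 and 0.67 in reporter- libraries 2 and 3, a difference of 0.99 (SE 0.62), and *Ptprc* one of 0.93 (SE 0.59). All 4 were higher within both numbers, but their differences varied with the library left out. Without reporter- library 2 they were 0.49 for *Adgre1*, 0.21 for *Csf1r*, 0.27 for *Itgam* and 0.39 for *Ptprc*. Without reporter+ library 3 they were 0.73, 0.57, 0.54 and 0.48 in the same order. Without reporter- library 3 they were 1.78, 1.45, 1.70 and 1.46. The exception was *Lyve1*, the hyaluronan receptor of some resident macrophages and of lymphatic endothelium, with a difference of −0.51 (SE 1.00) between values of −6.83 and −4.78. Its difference was 0.94 within number 2 and −1.96 within number 3, and turned to 0.52 without reporter- library 3. Some markers of macrophage subsets were blank: *Timd4* had no value in any library, *Cd163* had one in reporter+ library 3 alone (−7.59), and *Ccr2*, the chemokine receptor of inflammatory monocytes, in reporter- library 3 alone (−7.44).

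Of 14 genes of the lysosome and of killing, 10 were higher in reporter+ cells within both numbers (22.1% of all genes) and 2 were lower (24.8%), with a median log2 difference of 0.81 (0.20 without reporter- library 2, 0.39 without reporter+ library 3, 1.56 without reporter- library 3). Both reporter+ libraries lay above both reporter- libraries for 7 of the 14, beside 7.59% of all genes. The complement gene *C1qb*, a product of tissue macrophages, had the largest difference (1.48, SE 0.27, limma adjusted p = 1, and 0.0437 with the replicate block), with log2 values of 2.04 and 1.76 in reporter+ libraries 2 and 3 and 0.23 and 0.62 in reporter- libraries 2 and 3. *Ctss*, the cathepsin of antigen processing, followed with 1.41 (SE 0.35). Among lysosomal genes used by every cell type, the log2 difference was −0.095 (SE 0.28) for *Lamp1* and 0.24 (SE 0.18) for *Lamp2*, relatives of *Cd68*, and 0.032 (SE 0.17) for *Laptm4a*, a relative of *Laptm5*. Whether these 3 genes differed from *C1qb* and *Ctss* was not tested.

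Partners of *Cd14* in LPS sensing varied, with 5 of 9 genes higher in reporter+ cells within both numbers (22.1% of all genes), 1 lower (24.8%), and a median log2 difference of 0.29, which was 0.14 without reporter- library 2 or without reporter+ library 3. *Ly96*, which encodes MD-2, had the largest difference (1.08, SE 0.46), which was 0.46 without reporter- library 3 and 1.70 without reporter- library 2. Its log2 values were 2.31 and 2.13 in reporter+ libraries 2 and 3 and 1.76 and 0.51 in reporter- libraries 2 and 3, so that reporter- library 3 was the lowest, as it was for *Cd14*. *Tlr4*, the signaling receptor of the complex, had values of 3.35 and 3.12 in reporter+ and 3.49 and 2.92 in reporter- libraries 2 and 3, a difference of 0.028 (SE 0.25). *Irak4*, a kinase downstream of the Toll-like receptors, had the lowest difference of the list (−0.13, SE 0.26).

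Among transcription factors of macrophages, 4 of 10 were higher in reporter+ cells within both numbers (22.1% of all genes) and 2 were lower (24.8%), with a median log2 difference of 0.19 that was −0.082 without reporter- library 2, 0.023 without reporter+ library 3, 0.28 without reporter+ library 2 and 0.58 without reporter- library 3. *Irf8*, a partner of PU.1, had the largest difference (0.51, SE 0.54) at log2 values of −2.58 to −1.47, and *Klf4* the lowest (−0.45, SE 0.30). Without reporter+ library 3 the difference was 0.028 for *Irf8* and −0.067 for *Klf4*, and without reporter+ library 2 it was 0.988 and −0.825. The families of *Msr1* and *Mrc1* were close to the median of all genes, with 2 of 10 higher and 2 lower within both numbers, beside the same 22.1% and 24.8% of all genes, and a median of −0.068, which was 0.088 without reporter+ library 2, −0.023 without reporter- library 3, −0.12 without reporter+ library 3 and −0.27 without reporter- library 2. *Marco*, a scavenger receptor of macrophages, had the largest difference (0.92, SE 1.31) but changed far more between numbers, from 1.16 to 3.46 in reporter+ and from −0.18 to 2.95 in reporter- libraries 2 and 3. Its difference was 1.34 within number 2 and 0.505 within number 3, but turned to −0.23 without reporter+ library 3 and to −0.64 without reporter- library 2. It was 2.07 without reporter+ library 2 and 2.49 without reporter- library 3. *Mrc2*, the collagen receptor of fibroblasts and paralog of *Mrc1*, had the lowest (−0.30, SE 0.14), with 5.20 and 5.25 in reporter+ and 5.54 and 5.52 in reporter- libraries 2 and 3. *Cx3cl1*, the ligand of *Cx3cr1*, had log2 values of 3.13 to 4.42 and a difference of 0.30 (SE 0.49), with 0.10 for *Adam10* and 0.11 for *Adam17*, the proteases that release it. The difference of *Cx3cl1* was 0.25 within number 2 and 0.35 within number 3. It turned to −0.22 without reporter+ library 3 and to −0.17 without reporter- library 2. It was 0.82 without reporter+ library 2 and 0.77 without reporter- library 3. The median of these 3 genes was 0.11, and 0.025 without reporter+ library 2, 0.19 without reporter+ library 3, 0.29 without reporter- library 2 and −0.060 without reporter- library 3.

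**Figure D4:**
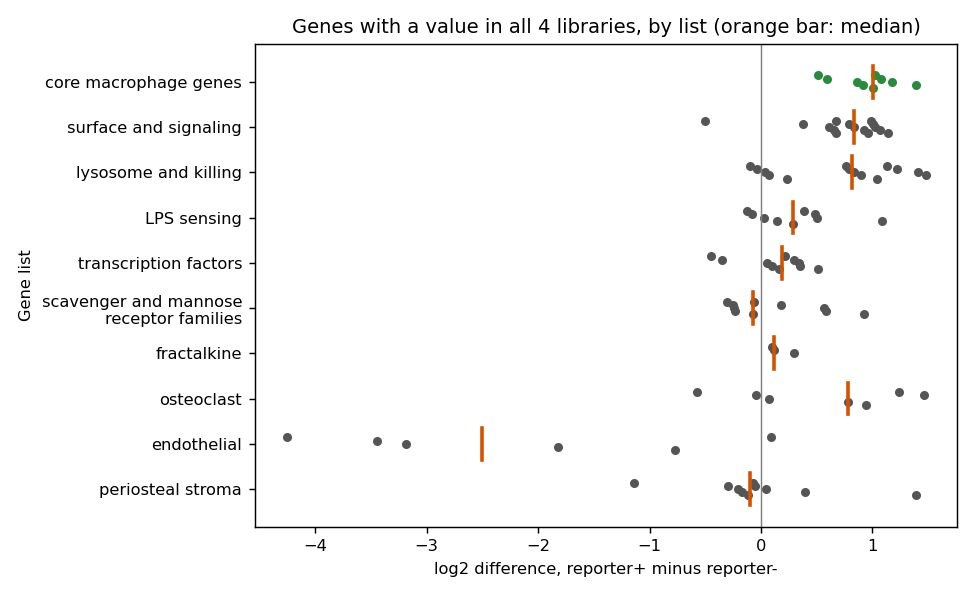
Log2 difference between PDGFRα reporter+ and PDGFRα reporter- cells (x axis) for genes with a value in all 4 libraries, by list (y axis), with a point per gene, green for the 9 core macrophage genes and an orange bar for the median of the list. The medians were 1.00 for the core genes, 0.83 for surface and signaling genes and 0.81 for genes of the lysosome and of killing.

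Markers of other cell types were measured beside these genes. Sums of unlogged values, in the unstated unit, follow the genes with the highest values and are set side by side only between libraries for the same list. The 9 core genes summed to 221 and 264 in reporter+ libraries 2 and 3 and to 88.2 and 170 in reporter- libraries 2 and 3. Osteoclast genes, which belong to the same lineage, summed to 8.41 and 8.08 in reporter+ and to 9.10 and 4.08 in reporter- libraries 2 and 3. Of the 7 osteoclast genes with all values, 5 were higher in reporter+ cells by the mean, beside 49.1% of all genes. They were led by *Acp5* (1.46, SE 0.56, with 0.44 within number 2 and 2.48 within number 3). No overlap, with reporter+ above, was seen for 3 of the 7, beside 7.59% of all genes. *Itgb3* was lower within both numbers (−0.54 and −0.61), and *Nfatc1* had a difference of −0.044 (SE 0.73). In reporter- library 2 *Nfatc1* (1.86) and *Itgb3* (1.52) had the highest log2 values of the list. Without reporter- library 3 *Acp5* was 0.765 and *Dcstamp* led with 1.03. Without reporter+ library 2 *Acp5* was 1.78 and *Dcstamp* led with 2.17. The median of the 7 genes was 0.78, and 0.31 without reporter+ library 3, 0.43 without reporter- library 3 and 1.42 without reporter+ library 2. Of 10 neutrophil genes, *S100a9*, *Ltf*, *Ngp* and *Retnlg* were blank in all libraries, and the sum was 0.411 and 4.14 in reporter+ and 0.370 and 1.04 in reporter- libraries 2 and 3. *Camp* and *Mmp8*, the 2 neutrophil genes with all values, were higher in reporter+ cells within both numbers, beside 22.1% of all genes, with differences of 0.78 (SE 0.87) and 0.87 (SE 0.95). These turned to −0.32 for *Camp* without reporter+ library 3 and to −0.15 for *Mmp8* without reporter- library 3. The log2 values of *Mmp8* were low, from −6.73 to −4.51. *S100a8* had −4.21 and 1.39 in reporter+ libraries 2 and 3 and −1.14 in reporter- library 3, and was blank in reporter- library 2. *Elane* went the other way, blank in both reporter+ libraries and with −4.24 and −5.315 in reporter- libraries 2 and 3. Endothelial genes went the other way, with sums of 0.317 and 1.24 in reporter+ and of 1.23 and 3.91 in reporter- libraries 2 and 3 and 5 of 6 genes lower within both numbers, beside 24.8% of all genes. Their median log2 difference was −2.50, from −4.26 (SE 0.87) for *Cdh5* to 0.093 (SE 0.69) for *Vwf*. With limma, 0 of the 6 had an adjusted p under 0.05, with or without the replicate block. *Cdh5* had −4.75 and −6.40 in reporter+ and −1.97 and −0.67 in reporter- libraries 2 and 3, far below the median of the libraries. Both reporter+ libraries lay below both reporter- libraries for 4 of the 6, beside 8.1% of all genes. Dendritic cell genes summed to at most 0.698, mast cell genes to 0.107, B cell genes to 0.0963, T cell genes to 0.195 and erythroid genes to 0.171 in any library, and *Flt3*, *Cd209a*, *Tpsb2*, *Ms4a1*, *Cd3e* and *Alas2* were blank throughout. The stromal genes summed to 1550 and 1510 in reporter+ and to 1630 and 1270 in reporter- libraries 2 and 3. The part of these other cell types in the differences of the core macrophage genes was not tested.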

How the data were processed

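The authors had sequenced total RNA of 2 PDGFRα reporter+ and 2 PDGFRα reporter- populations, with both ends read and strand kept. The processing notes of the submitters name bcl2fastq 2.17.1.14, Partek 7.0 and the build GRCm38.p6. The aligner, the counting, the annotation and the filters are not given in the sources used here. The authors deposited 1 log2 value per gene symbol and library, quantile normalized, blank where no signal was found. The unlogged unit and the depth are unknown, so that no counting error can be given.

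Columns show the population and a number (2 or 3) that differs from the replicate numbers of the labels, and were assigned to a population only. The test was limma 3.58.1 in R 4.3.3, run over the 14415 genes without blanks (eBayes with a trend, two-sided, no block), with Benjamini-Hochberg adjustment and a threshold of 0.05. With 2 libraries against 2, an exact permutation test (two-sided) cannot go below p = 0.333. The script was tested on simulated data. The members, the gene lists and the alternatives were chosen with earlier results of these data known. Named genes were all members, the extremes of each list, their partners and paralogs, and the 10 nearest genes, together with some markers, overlapping genes and other list genes chosen after their values were seen. Positions were taken from GENCODE M21 on GRCm38 and promoter sequences from RefSeq on GRCm38.p6. Summaries were made in Python 3.11.15 with pandas 2.3.3.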

Additional observations from a re-analysis of the deposited data

Results flagged for a closer look

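*Cd14* and *Cx3cr1* were singled out because their difference between the populations went in opposite directions in the libraries numbered 2 and 3. For *Cd14* the log2 difference was −0.12 within number 2 and 1.14 within number 3, and for *Cx3cr1* it was −0.04 and 1.22. With 1 library of each population per number, this contrast between the numbers was not tested.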

How the results depend on the processing

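All 9 genes kept the direction of their difference with a pseudocount of 1, with 0.028 for *Cx3cr1* as the smallest. The replicate block, the fit without the variance trend, blanks at the lowest value, centering on the median and a minimum mean log2 value of 0 (6 genes tested) leave the differences of these genes the same or nearly so by construction and bear only on the calls. *Cd14* was reversed to −0.12 within number 2 and ranged from −0.027 to 1.05 with each library left out in turn, and *Cx3cr1* was reversed to −0.04 within number 2. The median of the 9 genes was 0.58 with the pseudocount and ranged from 0.51 to 1.58 with each library left out. For the companion genes the median of 0.38 was 0.19 with the pseudocount and 0.235 with a minimum mean log2 value of 0. It ranged from 0.12 to 0.77 with each library left out. The cause was not tested. Leaving out a library also unbalances the numbers.

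Libraries of the same number deviated together from their population means (correlation across genes 0.681), but the 2 pairs share only a number. With the replicate block, limma called 29 genes, 22 of them higher in reporter+ cells (0.153%), but 0 of the 9 genes (adjusted p 0.0674 to 1), beside an unadjusted p under 0.05 for 7 of the 9, compared with 3.36% of all genes in this direction. *Tyrobp* and *C1qb* were called (adjusted p = 0.0437 each), but were not in any other setting, with adjusted p-values of 0.463 to 1. With the block and without the trend, or without moderation, both chosen after seeing the data, 0 genes were called, beside 941 and 603 with an unadjusted p under 0.05, 6 and 1 of them among the 9 genes. The unknown depth limits what can be said of *Cx3cr1* and other low values.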
